A study of Mus musculus with 8 samples.

Results

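The 66 genes described here belong to families known for releasing transmitter from nerve terminals or for joining nerve terminals to their targets. They were chosen by symbol: the synaptotagmins (Syt), synapsins 1 to 3 (Syn), SV2 proteins (Sv2), Rab3 GTPases, VAMPs, syntaxins (Stx), proteins named Snap, syntaxin-binding proteins (Stxbp), complexins (Cplx), RIMs (Rims), Munc13s (Unc13), neurexins (Nrxn) and neuroligins (Nlgn), without Syt2, Cplx1 and Vamp1. Of 34980 genes in the files, 73 had such a name, and the 66 with a total of at least 100 counts over the 6 libraries were kept. The 7 below that total were Syt8 with 1 count, Cplx4 with 3, Stx11 with 13, Stx19 with 16, Vamp5 with 35, Unc13d with 39 and Syt15 with 46. The lowest members above it were Cplx3 with 231 counts and Vamp8 with 298. All 66 members also passed the filter on low counts that left 15841 genes for testing. Snap91 was taken in by its name, although it encodes AP180, a clathrin adaptor of vesicle endocytosis. Other members, such as Stx6 and Vamp3, act in membrane traffic outside transmitter release.

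The RNA came from layer IV of the visual cortex of B6D2 mice, dissected by hand, and 3 groups of 2 libraries were compared. The heterozygous P30 libraries were from mice at postnatal day 30 that carry a GFP allele in place of 1 copy of Otx2, written Otx2 +/GFP in the study's design and Otx2 +/- in the sample labels. The wild-type P100 and wild-type P30 libraries were from Otx2 +/+ mice at postnatal days 100 and 30. Otx2 is a homeodomain transcription factor, and each library pooled tissue of 4 mice. The allele is present in every cell of the mouse, the labels do not give the sex of the mice, and nothing states whether the duplicates came from separate pools, so p-values measure only the spread between these libraries. The 2 heterozygous P100 samples were not analysed here.

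Gene totals ran from 11016841 to 15308781 counts per library, and the 2 libraries of each group differed by more than sampling noise. Otx2 itself had 0 counts in 5 libraries, which allows up to 0.202 to 0.272 CPM (counts scaled to a common library total), and 73 counts in heterozygous P30 replicate 2, so its level does not check the genotype labels. That library also held Ttr, the transthyretin of the choroid plexus, at 584 CPM, against at most 0.0724 CPM in the other 5. The summed level of 8 choroid plexus markers was 187 and 1041 CPM in heterozygous P30, 156 and 168 CPM in wild-type P100 and 196 and 215 CPM in wild-type P30. All 6 layer 4 markers were detected, with summed levels of 1008 to 1203 CPM. Summed levels of 8 general neuron markers were 5428 to 5671 CPM in heterozygous P30, 5278 to 5455 CPM in wild-type P100 and 5186 to 5436 CPM in wild-type P30. Xist, which is made from the inactive X, reached 785 and 924 CPM in heterozygous P30 and no more than 0.639 CPM in any wild-type library. The Y-linked Ddx3y reached 2.48 and 1.04 CPM in heterozygous P30, against 146 to 156 CPM in wild-type libraries. Every genotype difference below is therefore also a difference in the sex of the pooled mice, and the 2 cannot be told apart.

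Transmitter is stored in synaptic vesicles, which dock at the active zone of the presynaptic membrane. There the vesicle protein VAMP2 zips together with a syntaxin and SNAP-25, the SNARE proteins, and fuses the membranes when calcium binds a synaptotagmin. RIM and Munc13 proteins of the active zone dock and prime the vesicles and hold calcium channels near them, while complexins and syntaxin-binding proteins guide SNARE assembly. Neurexins on the terminal bind neuroligins on the target cell and help to specify excitatory and inhibitory synapses, which mature in visual cortex around the critical period of plasticity.

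Most of these genes had nearly the same level in the 3 groups, and the RIM family held the clearest differences. Rims3 was lower in heterozygous P30 than in wild-type P30 and higher in wild-type P100 than in wild-type P30, while Rims2 was higher in wild-type P100 than in either P30 group. Several GC-rich genes at the synapse, among them Nrxn2, Nlgn2, Syn1, Stx1a and Unc13a, were 1.21 to 1.30-fold lower in wild-type P100 than in wild-type P30, and with the libraries' GC trends removed these 5 log2 differences were -0.21 to -0.27 and missed the threshold. At an adjusted p under 0.05 (edgeR quasi-likelihood test with Benjamini-Hochberg adjustment over all genes tested), 11 of the 66 members (16.7%) were called between wild-type P100 and wild-type P30, where 7.54% of all genes tested were called. Of these, 4 were higher and 7 lower, against 3.0% and 4.54% of all genes tested. Between heterozygous P30 and wild-type P30, 2 members (3.03%) were called, where 3.23% of all genes tested were. Both were lower, and of all genes tested 0.903% were higher and 2.32% lower. Between heterozygous P30 and wild-type P100, 7 members (10.6%) were called, where 5.1% of all genes tested were. Of these, 1 was higher and 6 lower, against 2.44% and 2.66% of all genes tested. A test over the 3 groups together called 11 members (16.7%), where 9.79% of all genes tested were called. The 3 comparisons share libraries with each other, and heterozygous P30 and wild-type P100 differ in age and genotype together. In bulk tissue, fewer cells of a type and less RNA per cell cannot be told apart.

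**Figure D1:**
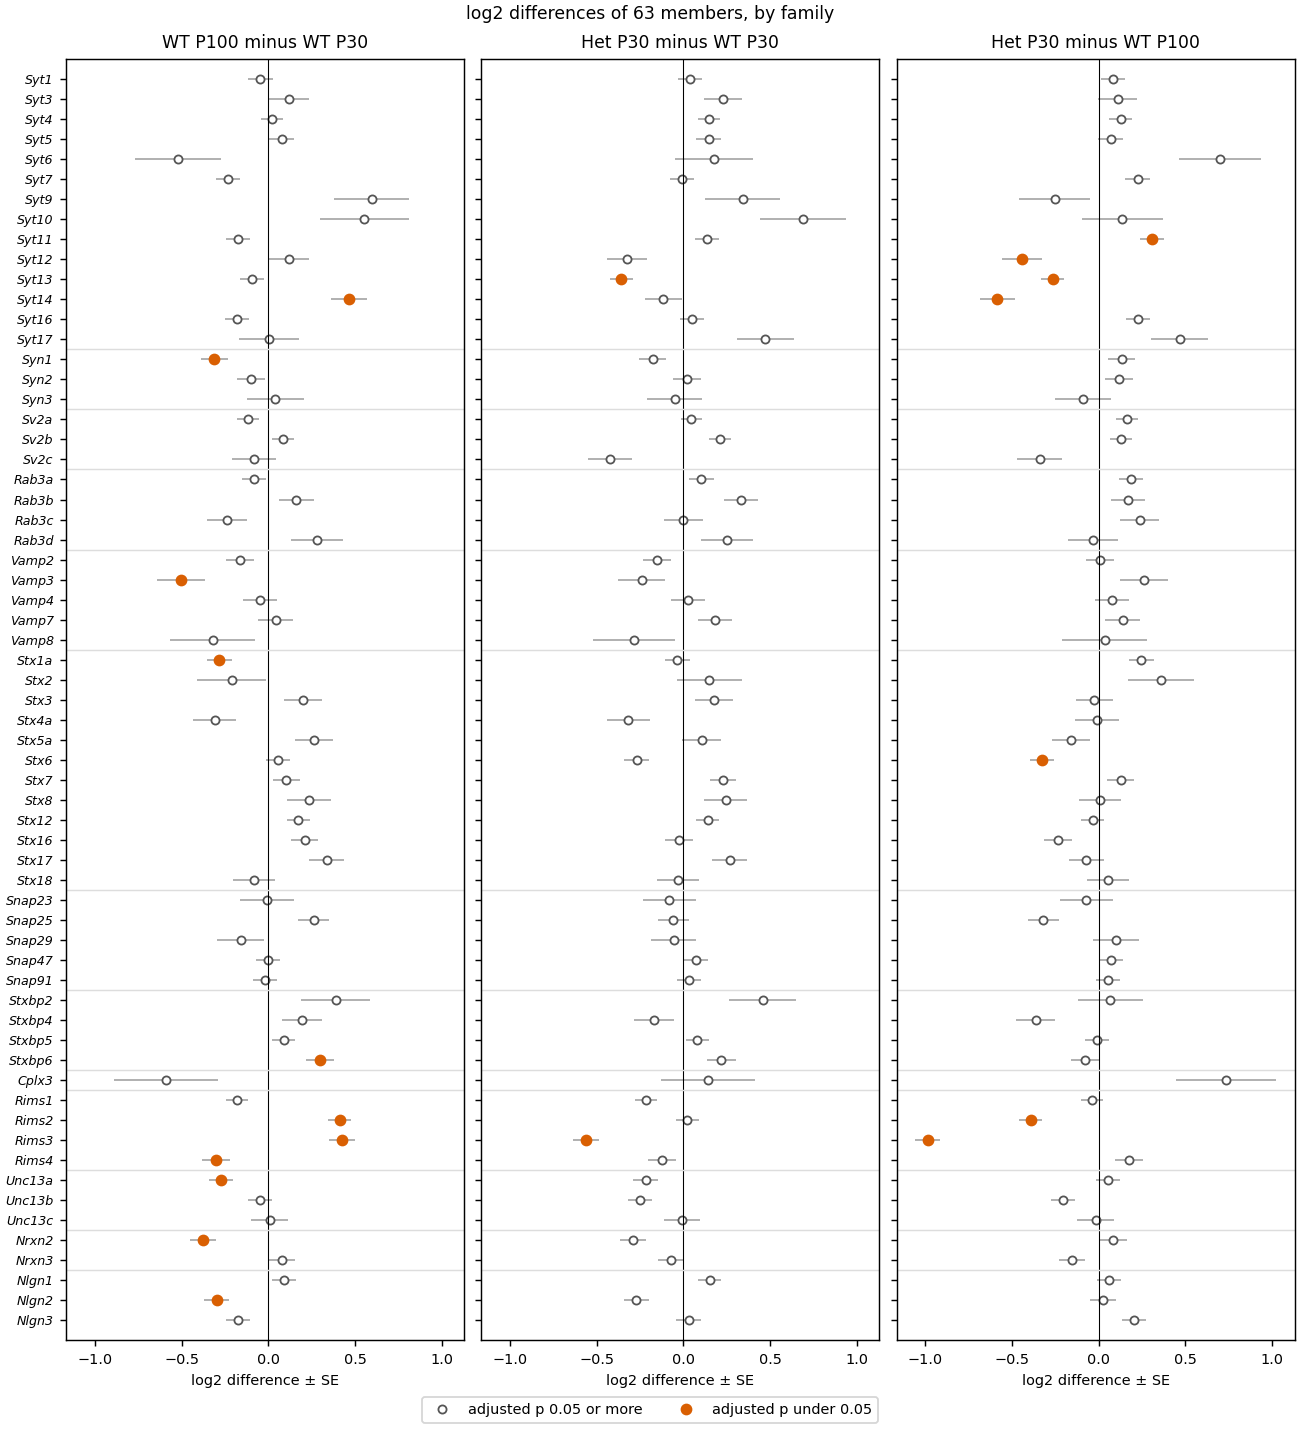
Each point is the log2 difference of 1 of 63 members, with its standard error as a line, in wild-type P100 minus wild-type P30, heterozygous P30 minus wild-type P30 and heterozygous P30 minus wild-type P100; families are separated by grey lines. Filled points passed an adjusted p of 0.05, which 11, 2 and 7 members did.

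The members' median log2 difference was -0.01 for wild-type P100 minus wild-type P30, 0.02 for heterozygous P30 minus wild-type P30 and 0.05 for heterozygous P30 minus wild-type P100. Over all genes tested these medians were 0.0006, 0.0029 and 0.0003. Within 1.2-fold lay 45, 51 and 52 of the 66 members in the 3 comparisons, and past 1.5-fold lay 2, 1 and 3. Thus most of the 66 members differed little in level between the groups. A member that missed the threshold is not shown to be equal between groups, since 26, 25 and 23 members had an unadjusted p under 0.05. Of all 15841 genes tested, 3595, 2745 and 3078 did.

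The promoters of 4 members are shown because these genes stand for the patterns that follow: Rims3, the member that differed in all 3 comparisons; Syt14, higher in wild-type P100 than in both P30 groups; and Syn1 and Nlgn2, GC-rich genes lower in wild-type P100. Each is the sequence just before the RefSeq start of the gene on GRCm38.p6, 5′ to 3′ on the gene's strand, without bases that GENCODE M21 places in the gene. Capitals mark matches to 5 motifs searched on both strands. The site of Otx2-type homeodomains was searched as TAATCC, the CRE as TGACGTCA, the AP-1 site as TGANTCA, the Egr site as GCGNGGGCG and the core promoter box as TATAAA. Rims3 lies at chr4:120854549-120854798 on the plus strand, Syt14 at chr1:193035776-193036025, Syn1 at chrX:20921005-20921168 and Nlgn2 at chr11:69837785-69838034, the last 3 on the minus strand.
Rims3: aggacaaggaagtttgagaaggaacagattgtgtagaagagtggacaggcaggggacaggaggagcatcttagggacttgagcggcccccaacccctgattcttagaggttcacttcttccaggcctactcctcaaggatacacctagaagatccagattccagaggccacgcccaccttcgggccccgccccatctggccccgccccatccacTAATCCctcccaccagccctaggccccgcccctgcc
Syt14: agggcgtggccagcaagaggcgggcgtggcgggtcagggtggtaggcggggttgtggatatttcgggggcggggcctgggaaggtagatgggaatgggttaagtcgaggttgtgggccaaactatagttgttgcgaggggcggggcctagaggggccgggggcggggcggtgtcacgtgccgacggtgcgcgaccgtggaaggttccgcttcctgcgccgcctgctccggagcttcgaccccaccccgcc
Syn1: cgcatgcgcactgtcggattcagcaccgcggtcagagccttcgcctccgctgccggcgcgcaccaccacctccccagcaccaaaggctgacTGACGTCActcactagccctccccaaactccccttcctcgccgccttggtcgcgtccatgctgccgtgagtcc
Nlgn2: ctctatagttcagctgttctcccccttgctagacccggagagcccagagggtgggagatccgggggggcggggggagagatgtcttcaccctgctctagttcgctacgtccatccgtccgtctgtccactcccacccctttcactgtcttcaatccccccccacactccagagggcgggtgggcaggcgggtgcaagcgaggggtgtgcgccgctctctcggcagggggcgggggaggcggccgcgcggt
The Rims3 stretch had 59.6% GC and 6 CpG dinucleotides, the fewest of the 4, against 25 in Syt14, 16 in the shorter Syn1 stretch and 18 in Nlgn2. Rims3 held 1 TAATCC and Syn1 held 1 TGACGTCA, and none of the 5 motifs matched in the Syt14 and Nlgn2 stretches. Over all 32851 promoters of the RefSeq table, 250 bases before the start held TAATCC in 6.25%, TGACGTCA in 1.55%, TGANTCA in 6.75%, GCGNGGGCG in 4.7% and TATAAA in 12.4%. The 48 members in that table had 64 promoters, and a member was counted if any of its promoters matched. Of these 48 members, 2 held TAATCC, 1 held TGACGTCA, 1 held TGANTCA, 5 held GCGNGGGCG and 4 held TATAAA. These counts are per gene, unlike the shares over promoters above. The median member promoter had 60% GC and 14 CpG dinucleotides, against 52.4% and 6 over the table. A match is a run of letters and shows no binding.

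Among the RIM genes, Rims3 encodes a short RIM that lacks the Rab3-binding and Munc13-binding part of the long forms, and it lies at chr4:120854816-120896579 on the plus strand (GRCm38, GENCODE M21). Rims3 was at 193 and 207 CPM in heterozygous P30, 372 and 420 CPM in wild-type P100 and 288 and 301 CPM in wild-type P30. The 3 groups did not overlap, with heterozygous P30 lowest and wild-type P100 highest. Rims3 was 1.47-fold lower in heterozygous P30 than in wild-type P30 (log2 difference -0.56 ± 0.07 SE, adjusted p = 0.000932) and 1.98-fold lower than in wild-type P100 (log2 difference -0.99 ± 0.07 SE, adjusted p = 7.86e-06). Both calls were kept in 14 of 14 alternative settings, heterozygous P30 replicate 2 left out included. Rims3 was 1.34-fold higher in wild-type P100 than in wild-type P30 (log2 difference 0.43 ± 0.07 SE, adjusted p = 0.00373), a call that was lost without wild-type P100 replicate 2 (adjusted p = 0.0585) and kept in the other 13 settings. In the authors' deposited table the same transcript had a log2 ratio of -0.56 for genotype (adjusted p = 2.025e-06) and 0.43 for age (adjusted p = 0.00708). Of the members' transcripts, the authors' deposited table passed 2 for genotype at an adjusted p under 0.05 (Rims3 and Syt13) and 3 for age (Nrxn2, Rims2 and Rims3), fewer than the 11 called for age here. Of the other 8, Syt14 had the lowest adjusted p in the authors' deposited table, at 0.131, and Vamp3 the highest, at 0.449.

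Rims2, at chr15:39198261-39684372 on the plus strand, encodes a long RIM that binds Rab3 and Munc13 and tethers calcium channels. Rims2 was at 356 and 349 CPM in heterozygous P30, 458 and 466 CPM in wild-type P100 and 331 and 363 CPM in wild-type P30. The P30 groups overlapped each other, and both P100 libraries were above all 4 P30 libraries. Rims2 was 1.33-fold higher in wild-type P100 than in wild-type P30 (log2 difference 0.41 ± 0.07 SE, adjusted p = 0.00241). It was 1.31-fold lower in heterozygous P30 than in wild-type P100 (log2 difference -0.39 ± 0.07 SE, adjusted p = 0.00464), and both calls were kept in 14 of 14 settings. Between the P30 groups its log2 difference was 0.02 ± 0.07 SE (adjusted p = 0.906).

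Rims4, the other short RIM, at chr2:163859751-163918683 on the minus strand, was at 130 and 125 CPM in heterozygous P30, 120 and 105 CPM in wild-type P100 and 133 and 144 CPM in wild-type P30. It was 1.23-fold lower in wild-type P100 than in wild-type P30 (log2 difference -0.30 ± 0.08 SE, adjusted p = 0.0391), a call kept in 6 of 14 settings, with adjusted p-values from 0.0106 to 0.2998. It was lost with counts summed over transcripts, with the GC trend removed (adjusted p = 0.108), with only the 4 libraries compared, and without any 1 of the libraries except wild-type P100 replicate 1. Rims1, the other long RIM, was at 566 and 542 CPM in heterozygous P30, 578 and 561 CPM in wild-type P100 and 629 and 660 CPM in wild-type P30. Rims1 passed no comparison, with adjusted p-values of 0.110 for wild-type P100 against wild-type P30 and 0.0840 for heterozygous P30 against wild-type P30.

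The balance within the family was read from levels per length (CPM per kb of the transcript). Rims3 made up 13.5% and 14.8% of the summed RIM level in heterozygous P30, 21.3% and 23.8% in wild-type P100 and 18.5% and 18.2% in wild-type P30. Rims1 made up 40.0% and 39.1% in heterozygous P30, 33.4% and 32.0% in wild-type P100 and 40.8% and 40.2% in wild-type P30. Rims2 made up 34.4% and 34.4% in heterozygous P30, 36.2% and 36.4% in wild-type P100 and 29.4% and 30.2% in wild-type P30. In wild-type P100 Rims2 thus exceeded Rims1 per length, whereas Rims1 led in all 4 P30 libraries. Rims4 made up 11.998% and 11.689% in heterozygous P30, 9.03% and 7.81% in wild-type P100 and 11.3% and 11.4% in wild-type P30. The summed RIM level was 219 and 215 CPM per kb in heterozygous P30, 268 and 271 in wild-type P100 and 239 and 255 in wild-type P30. These shares and sums carry no test.

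**Figure D2:**
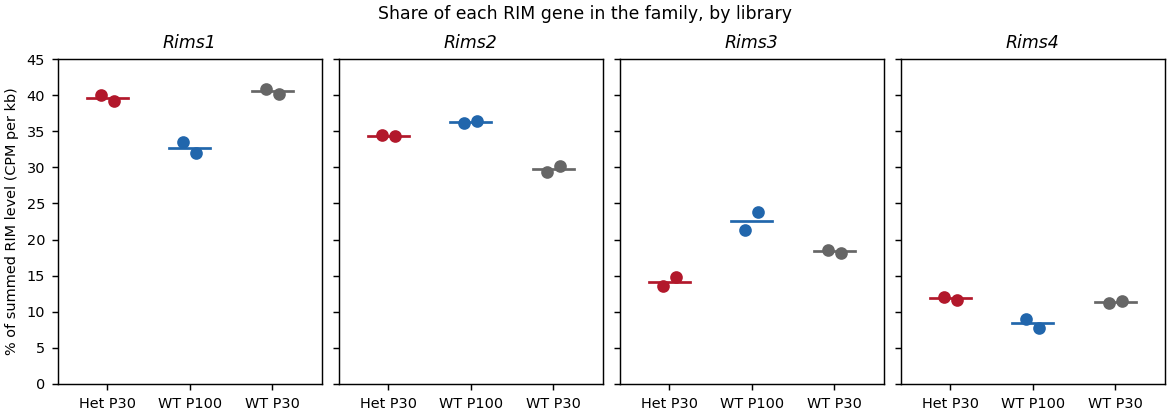
Each panel shows the share of 1 RIM gene in the summed RIM level (CPM per kb, in %) in each library, with points for libraries and lines for the mean of 2, for heterozygous P30, wild-type P100 and wild-type P30. Rims3 sits lowest in heterozygous P30 at 13.5% and 14.8% and highest in wild-type P100 at 21.3% and 23.8%.

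Of the 3 Munc13 genes, Unc13a encodes Munc13-1, the main priming factor of cortical synapses. Unc13a was at 467 and 506 CPM in heterozygous P30, 467 and 470 CPM in wild-type P100 and 541 and 592 CPM in wild-type P30. The wild-type P30 libraries were above the other 4. Unc13a was 1.21-fold lower in wild-type P100 than in wild-type P30 (log2 difference -0.27 ± 0.07 SE, adjusted p = 0.0295), a call kept in 9 of 14 settings. It was lost without either wild-type P100 library and without wild-type P30 replicate 2, among others (adjusted p up to 0.141). Unc13b and Unc13c were at 122 to 147 CPM and 44.6 to 54.4 CPM over the 6 libraries and passed no comparison.

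Synaptotagmins are vesicle and membrane proteins with paired C2 domains, some of which bind calcium. Syt1, the sensor for fast release, was the most abundant of the 14 members, with at least 45% of the family's level per length in every library. Syt1 was at 2496 and 2402 CPM in heterozygous P30, 2400 and 2223 CPM in wild-type P100 and 2271 and 2504 CPM in wild-type P30, and it passed no comparison. Its largest log2 difference was 0.08 ± 0.07 SE, between heterozygous P30 and wild-type P100. The calls fell on less abundant members that do not work as calcium sensors of fast release.

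Syt13, a synaptotagmin without the calcium-binding residues of Syt1, lies at chr2:92915098-92956058 on the plus strand. It was at 270 and 289 CPM in heterozygous P30, 322 and 349 CPM in wild-type P100 and 357 and 358 CPM in wild-type P30. Both heterozygous libraries were below the 4 wild-type libraries. Syt13 was 1.28-fold lower in heterozygous P30 than in wild-type P30 (log2 difference -0.36 ± 0.07 SE, adjusted p = 0.0110) and 1.2-fold lower than in wild-type P100 (log2 difference -0.27 ± 0.07 SE, adjusted p = 0.0385). The difference from wild-type P30 was lost without heterozygous P30 replicate 1 (adjusted p = 0.160) and without wild-type P30 replicate 2 (adjusted p = 0.0564). It was kept without heterozygous P30 replicate 2, the library with choroid plexus RNA. The difference from wild-type P100 was lost without any 1 library of either group and with counts summed over transcripts (adjusted p up to 0.337).

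Syt14, at chr1:192891233-193035775 on the minus strand, also lacks calcium-dependent lipid binding. It was at 20.8 and 21.8 CPM in heterozygous P30, 31.6 and 32.2 CPM in wild-type P100 and 23.2 and 23.0 CPM in wild-type P30. The 2 libraries of each group lay close together, and wild-type P100 stood above both P30 groups. Syt14 was 1.38-fold higher in wild-type P100 than in wild-type P30 (log2 difference 0.47 ± 0.10 SE, adjusted p = 0.0168) and 1.5-fold lower in heterozygous P30 than in wild-type P100 (log2 difference -0.58 ± 0.10 SE, adjusted p = 0.00571). The first was lost with counts summed over transcripts and without either wild-type P100 library or wild-type P30 replicate 2 (adjusted p up to 0.0880), and the second without heterozygous P30 replicate 1 (adjusted p = 0.0625).

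Syt11, a synaptotagmin of endocytic and vesicle membranes, was at 755 and 686 CPM in heterozygous P30, 596 and 567 CPM in wild-type P100 and 677 and 635 CPM in wild-type P30. It was the only member called higher in heterozygous P30 than in wild-type P100, by 1.24-fold (log2 difference 0.31 ± 0.07 SE, adjusted p = 0.0210). That call was lost without heterozygous P30 replicate 1 and without either wild-type P100 library (adjusted p up to 0.248). Syt12 was at 32.1 and 27.5 CPM in heterozygous P30, 36.9 and 44.3 CPM in wild-type P100 and 37.8 and 36.8 CPM in wild-type P30. It was 1.36-fold lower in heterozygous P30 than in wild-type P100 (log2 difference -0.44 ± 0.12 SE, adjusted p = 0.0418) and lost with DESeq2, with counts summed over transcripts, and without either heterozygous library or wild-type P100 replicate 2 (adjusted p up to 0.288). Of the Syt12 exon bases, 26.5% are shared with a gene annotated as A930001C03Rik, so its counts are uncertain to that extent.

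The largest differences that missed the threshold were in rare members, Syt10 and Syt9 among them. Syt10 was at 9.38 and 6.77 CPM in heterozygous P30, 8.32 and 6.25 CPM in wild-type P100 and 6.30 and 3.89 CPM in wild-type P30. Its replicates lay far apart in all 3 groups, and the log2 difference of 0.69 ± 0.25 SE between the P30 groups did not pass (adjusted p = 0.160). Syt9 was at 8.51 and 6.97 CPM in heterozygous P30, 10.6 and 7.74 CPM in wild-type P100 and 7.21 and 5.14 CPM in wild-type P30, with a log2 difference of 0.60 ± 0.22 SE between the wild-type ages (adjusted p = 0.115). Complexins clamp and then promote fusion, and Cplx3 is best known from ribbon synapses of the retina. It was the only complexin kept, since Cplx1 was left out by choice, Cplx4 had too few counts and Cplx2 was not among the names found. The level of Cplx3 therefore does not stand for the family. Cplx3 was at 3.75 and 2.99 CPM in heterozygous P30, 2.17 and 1.85 CPM in wild-type P100 and 2.46 and 3.54 CPM in wild-type P30. Its log2 difference of 0.74 ± 0.29 SE between heterozygous P30 and wild-type P100 did not pass (adjusted p = 0.180).

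Synapsins tether vesicles in the reserve pool of the terminal. Syn1 was at 199 and 221 CPM in heterozygous P30, 200 and 183 CPM in wild-type P100 and 229 and 246 CPM in wild-type P30. The wild-type P30 libraries were the highest. Syn1 was 1.24-fold lower in wild-type P100 than in wild-type P30 (log2 difference -0.31 ± 0.08 SE, adjusted p = 0.0256), a call kept in 9 of 14 settings and lost without either wild-type P100 library and without wild-type P30 replicate 2, among others (adjusted p up to 0.210). Syn2, the most abundant synapsin per length, was at 369 and 382 CPM in heterozygous P30, 369 and 322 CPM in wild-type P100 and 393 and 348 CPM in wild-type P30, and the groups overlapped. Syn3 passed no comparison, and 36.3% of its exon bases are shared with Timp3 on the opposite strand.

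Of the other vesicle proteins, no SV2 or Rab3 gene passed a comparison. Sv2b, a transporter-like glycoprotein of the vesicle membrane, was at 1251 and 1180 CPM in heterozygous P30, 1100 and 1122 CPM in wild-type P100 and 1066 and 1032 CPM in wild-type P30. Both heterozygous libraries were above the others, with an adjusted p of 0.0910 against wild-type P30. Sv2c, the rarest of the family, was at 11.3 and 12.2 CPM in heterozygous P30, 14.98 and 14.87 CPM in wild-type P100 and 16.0 and 15.6 CPM in wild-type P30, with an adjusted p of 0.0947 against wild-type P30. Rab3a, the GTPase that links vesicles to RIMs, was at 336 and 339 CPM in heterozygous P30, 279 and 314 CPM in wild-type P100 and 308 and 320 CPM in wild-type P30. Rab3a made up 68.6% to 76.7% of the Rab3 level per length over the 6 libraries.

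The core SNARE genes Vamp2, Stx1a and Snap25 were each the most abundant of their family per length. Snap25 encodes the target-membrane SNARE that pairs with syntaxin and had the highest level per length of all members with a known transcript length, at 1382 CPM per kb in heterozygous P30, 1726 in wild-type P100 and 1439 in wild-type P30. Snap25 was at 2872 and 2978 CPM in heterozygous P30, 3550 and 3753 CPM in wild-type P100 and 2705 and 3386 CPM in wild-type P30. Both P100 libraries were the highest, but the wild-type P30 libraries were far apart, and the differences missed the threshold (adjusted p = 0.0931 between the wild-type ages and 0.0546 for heterozygous P30 against wild-type P100). The age difference passed without wild-type P30 replicate 2 and without a filter on low counts. The difference between heterozygous P30 and wild-type P100 passed without either wild-type P30 library, with only the 4 libraries compared, with DESeq2 and without a filter. Both differences also passed in a fit with replicate number as a block. Vamp2, the vesicle SNARE, was at 236 and 269 CPM in heterozygous P30, 258 and 244 CPM in wild-type P100 and 265 and 296 CPM in wild-type P30, and it passed no comparison.

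Stx1a, the syntaxin of the presynaptic membrane, was at 195 and 186 CPM in heterozygous P30, 162 and 158 CPM in wild-type P100 and 185 and 205 CPM in wild-type P30. Both P100 libraries were the lowest. It was 1.22-fold lower in wild-type P100 than in wild-type P30 (log2 difference -0.28 ± 0.07 SE, adjusted p = 0.0312), kept in 8 of 14 settings and lost without either wild-type P100 library and without wild-type P30 replicate 2, among others (adjusted p up to 0.199). Stx6, a SNARE of the trans-Golgi network and endosomes, was at 96.3 and 99.2 CPM in heterozygous P30, 121 and 124 CPM in wild-type P100 and 120 and 116 CPM in wild-type P30. Both heterozygous libraries were below the other 4. Stx6 was 1.25-fold lower in heterozygous P30 than in wild-type P100 (log2 difference -0.33 ± 0.07 SE, adjusted p = 0.0180), and its difference of -0.27 ± 0.07 SE from wild-type P30 missed the threshold (adjusted p = 0.0573). The call against wild-type P100 was lost without any 1 library of either group and with counts summed over transcripts (adjusted p up to 0.171).

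Vamp3, or cellubrevin, a SNARE of recycling endosomes in many cell types including glia, was at 23.2 and 22.2 CPM in heterozygous P30, 21.5 and 16.1 CPM in wild-type P100 and 28.85 and 24.96 CPM in wild-type P30. The wild-type groups did not overlap, but the 2 P100 libraries differed by more than the gap between the groups. Vamp3 was 1.42-fold lower in wild-type P100 than in wild-type P30 (log2 difference -0.50 ± 0.14 SE, adjusted p = 0.0431), kept in 8 of 14 settings. It was lost without either wild-type P30 library and without wild-type P100 replicate 2, among others (adjusted p up to 0.289). The other 3 VAMPs passed no comparison, with levels from 3.11 CPM for Vamp8 to 54.7 CPM for Vamp4.

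Among syntaxin-binding proteins, Stxbp6 (amisyn), which carries a SNARE motif that competes with VAMP2 for syntaxin, was at 129 and 130 CPM in heterozygous P30, 139 and 134 CPM in wild-type P100 and 102 and 120 CPM in wild-type P30. Stxbp6 was 1.23-fold higher in wild-type P100 than in wild-type P30 (log2 difference 0.30 ± 0.08 SE, adjusted p = 0.0432). The 2 wild-type P30 libraries were farther apart than any other pair, and the call was kept in 6 of 14 settings. It was lost without any 1 library except wild-type P30 replicate 2, among others (adjusted p up to 0.284).

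**Figure D3:**
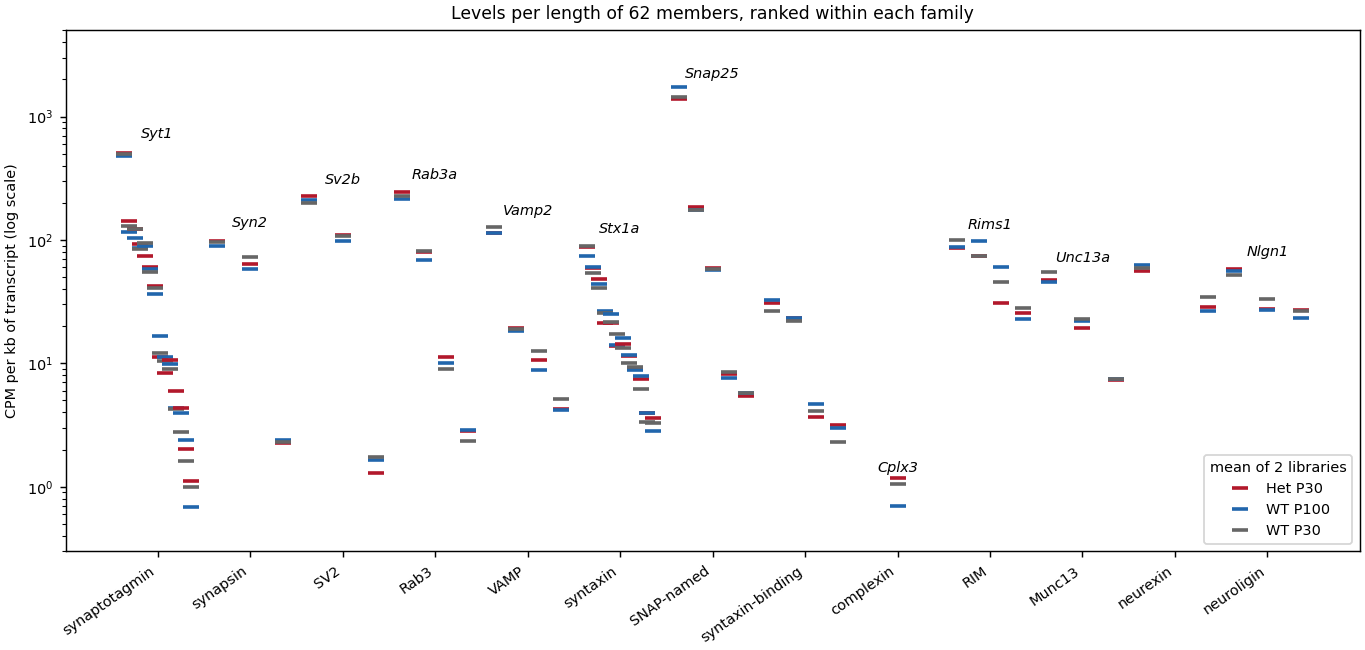
The levels of 62 members with a known transcript length are plotted as CPM per kb on a log scale, ranked within each family, with 1 mark per group for the mean of 2 libraries and the most abundant member named in 11 of 13 families. Cplx3 was the only complexin among the members. Snap25 leads at 1382 CPM per kb in heterozygous P30, 1726 in wild-type P100 and 1439 in wild-type P30, and within most families the marks of the 3 groups lie close together.

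On the adhesion side, Nrxn2 was at 181 and 198 CPM in heterozygous P30, 187 and 170 CPM in wild-type P100 and 223 and 240 CPM in wild-type P30. The wild-type P30 libraries were above the other 4. Nrxn2 was 1.30-fold lower in wild-type P100 than in wild-type P30 (log2 difference -0.38 ± 0.08 SE, adjusted p = 0.00987). Its difference of -0.29 ± 0.08 SE between heterozygous P30 and wild-type P30 missed the threshold (adjusted p = 0.0549). DESeq2 called that difference (adjusted p = 0.0374), as did the fit without a filter and a fit with replicate number as a block (adjusted p = 0.0487). The age call was kept in 11 of 14 settings and lost without wild-type P100 replicate 2, without wild-type P30 replicate 2 and with the GC trend removed (adjusted p up to 0.117). Nrxn3 passed no comparison.

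Nlgn2 encodes the neuroligin of inhibitory synapses and was at 145 and 159 CPM in heterozygous P30, 151 and 148 CPM in wild-type P100 and 178 and 189 CPM in wild-type P30. It was 1.23-fold lower in wild-type P100 than in wild-type P30 (log2 difference -0.30 ± 0.07 SE, adjusted p = 0.0244). This call was kept in 10 of 14 settings and lost without either wild-type P100 library and without wild-type P30 replicate 2 and with the GC trend removed (adjusted p up to 0.156). Nlgn2 missed the threshold between heterozygous P30 and wild-type P30 (log2 difference -0.27 ± 0.07 SE, adjusted p = 0.0579). DESeq2 called that difference (adjusted p = 0.0499), as did the fit without a filter and a fit with replicate number as a block (adjusted p = 0.0463). Nlgn1, the neuroligin of excitatory synapses, was at 262 and 243 CPM in heterozygous P30, 240 and 244 CPM in wild-type P100 and 219 and 235 CPM in wild-type P30, and passed no comparison. Per length, Nlgn2 made up 23.2% and 25.5% of the neuroligin level in heterozygous P30, 25.9% and 24.9% in wild-type P100 and 29.7% and 29.5% in wild-type P30. Nlgn1 made up 53.4% and 49.7% in heterozygous P30, 52.4% and 52.5% in wild-type P100 and 46.7% and 46.7% in wild-type P30, which put both wild-type P30 libraries lowest. Nlgn3 is found at both kinds of synapse and passed no comparison, and 44.8% of its exon bases are shared with Gm21986 on the same strand.

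**Figure D4:**
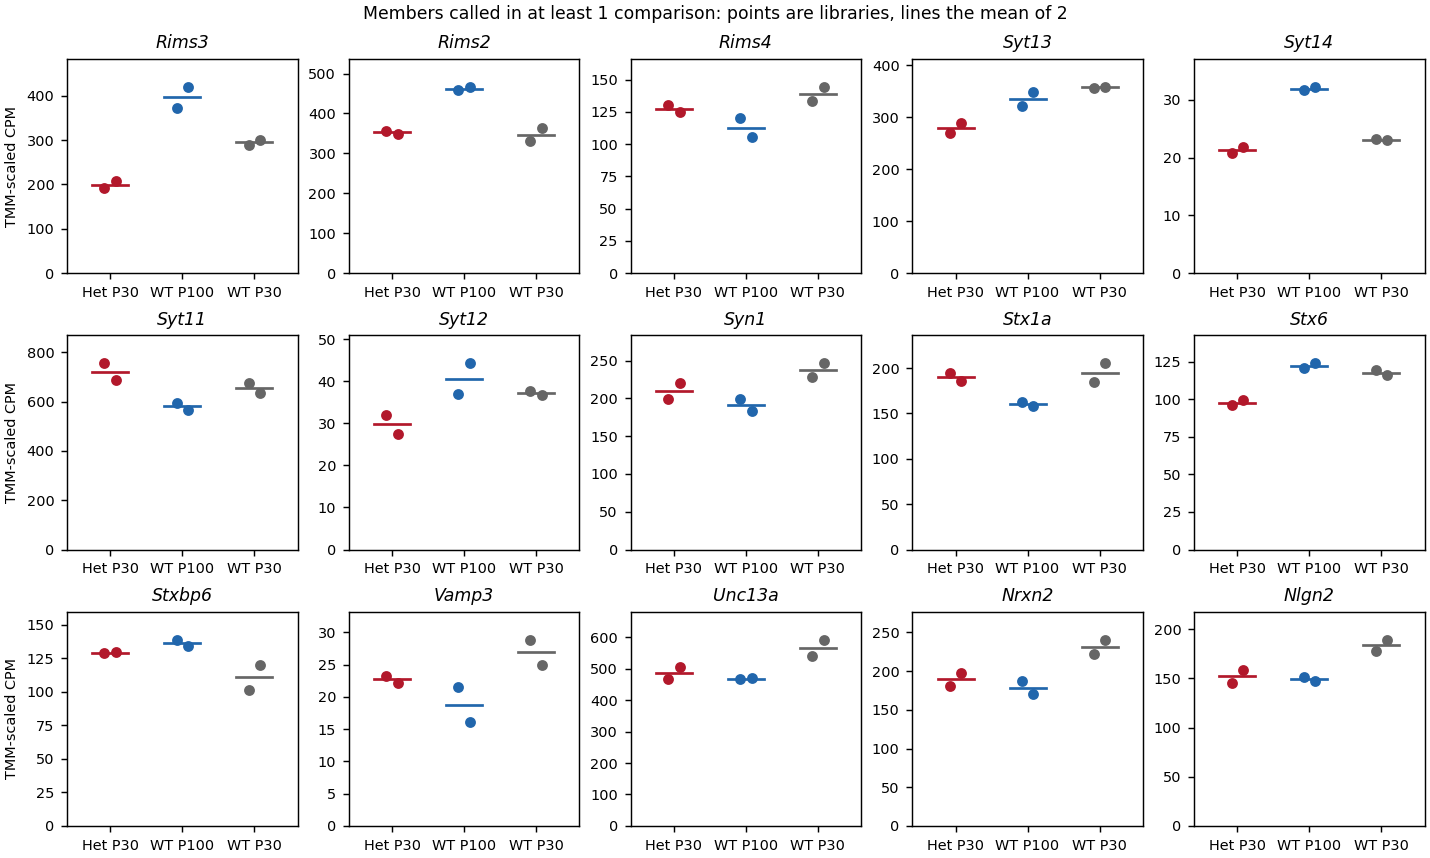
The 15 members called in at least 1 comparison are plotted as CPM scaled by the trimmed mean of M-values (TMM), with points for libraries and lines for the mean of 2, in heterozygous P30, wild-type P100 and wild-type P30; every axis starts at 0. Rims3 separates the 3 groups, Rims2 and Syt14 are high in wild-type P100, and Syn1, Unc13a, Nrxn2 and Nlgn2 are high in wild-type P30.

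The 7 members lower in wild-type P100 had a median transcript GC content of 57.9%, from 44.4% for Vamp3 to 62.4% for Nrxn2. The 4 higher members had a median of 48.45%, the 54 uncalled members with a known sequence 49.3%, and all genes tested 49.95%. The trend of each library with GC content (the level at 60% GC minus that at 45%, log2) was -0.03 and 0.01 in heterozygous P30, -0.10 and -0.02 in wild-type P100 and 0.07 and 0.06 in wild-type P30. With this trend taken out of the counts, a setting added after the data were seen, 4 of the 11 age calls were kept: Rims2, Rims3 and Syt14 higher and Vamp3 lower. The other 7 missed the threshold with smaller differences of the same direction. Nrxn2 had a log2 difference of -0.27 (adjusted p = 0.0602), against -0.38 with the trend left in, and Nlgn2 -0.21 (adjusted p = 0.105), against -0.30. Syn1 had -0.24, against -0.31 (adjusted p = 0.0834), and Stx1a -0.21, against -0.28 (adjusted p = 0.108). Unc13a had -0.23, against -0.27 (adjusted p = 0.0548), and Rims4 -0.25, against -0.30 (adjusted p = 0.108). Stxbp6 had 0.22, against 0.30 (adjusted p = 0.132). A missed threshold does not show that the GC trend accounts for these differences. Rims3 had a log2 difference of 0.47 between the wild-type ages with the trend removed, against 0.43 with it left in. The 2 calls between the P30 groups and the 7 calls between heterozygous P30 and wild-type P100 were kept with the trend removed.

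**Figure D5:**
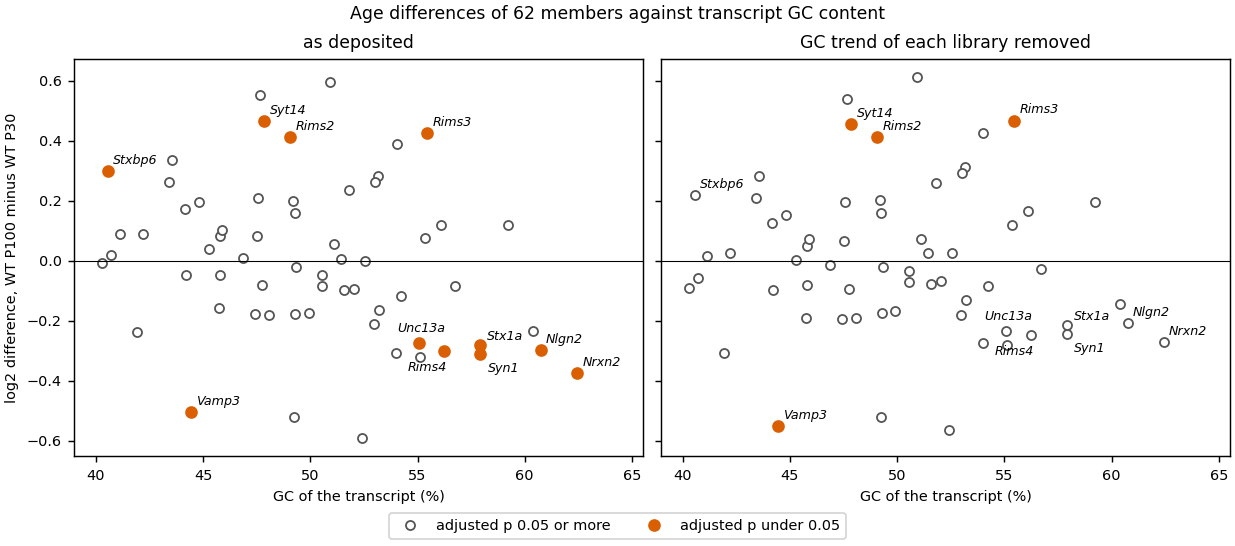
The log2 difference of wild-type P100 minus wild-type P30 is plotted against the GC content of the transcript (%) for 62 members. The left panel, titled as deposited, keeps the libraries' GC trends, and the right panel has them removed. Filled points passed an adjusted p of 0.05, 11 at left and 4 at right, and Unc13a, Rims4, Stx1a, Syn1, Nlgn2, Nrxn2 and Stxbp6 keep their direction but not their call at right, while Rims3, at 55.4% GC, stays called.

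The age calls also rested on the duplicates. Without wild-type P100 replicate 2, 1 of the 11 members (Rims2) was still called between the wild-type ages, without wild-type P30 replicate 2 there were 3 (Rims2, Rims3 and Stxbp6), and without wild-type P100 replicate 1 there were 5 (Nrxn2, Rims2, Rims3, Rims4 and Vamp3). Without wild-type P30 replicate 1, 8 of the 11 were still called. Oligodendrocyte markers moved with age too: 8 of 8 were lower in wild-type P100 than in wild-type P30, with summed levels of 1793 and 1511 CPM in wild-type P100 and 3247 and 3125 CPM in wild-type P30. In heterozygous P30 the sum was 2244 and 2309 CPM, and 8 of 8 were lower than in wild-type P30. Of 6 oligodendrocyte precursor markers, 5 were lower in wild-type P100 than in wild-type P30, with summed levels of 164 and 141 CPM in wild-type P100 and 249 and 246 CPM in wild-type P30. Of 8 microglia markers 2 were lower in that comparison, and of 8 astrocyte markers 3. The share of all genes tested that were lower was 4.54% with age. It was 2.32% for heterozygous P30 against wild-type P30. In this genotype comparison, 0 of 6 precursor and 0 of 8 microglia markers were called, and 2 of 8 astrocyte markers were lower. The part of these cell types in the members' differences was not tested.

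Of 16 activity-regulated genes such as Fos, Arc and Egr1, 15 were lower in wild-type P100 than in wild-type P30, with a median log2 difference of -1.93. In heterozygous P30, 15 were lower than in wild-type P30, with a median of -1.66. Lower in these comparisons were 4.54% and 2.32% of all genes tested. No member of the release and adhesion genes differed by as much as either median in these comparisons. The largest was 0.69 in size, for Syt10.

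The wider pathway was covered by 4 lists with 126 tested genes outside the members. Between wild-type P100 and wild-type P30, 13 of them (10.3%) were called, 2 higher and 11 lower, where 7.54% of all genes tested were called (3.0% higher and 4.54% lower). Between heterozygous P30 and wild-type P30, 9 (7.14%) were called, 3 higher and 6 lower, where 3.23% of all genes tested were. Between heterozygous P30 and wild-type P100, 14 (11.1%) were called, 10 higher and 4 lower, where 5.1% of all genes tested were.

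Of 23 genes of the vesicle membrane and transmitter loading, 2 (8.7%) were lower in wild-type P100 than in wild-type P30, where 4.54% of all genes tested were. None was called between the P30 groups, where 3.23% of all genes tested were. Slc17a7, the vesicular glutamate transporter VGLUT1, was at 534 and 536 CPM in heterozygous P30, 440.5 and 440.0 CPM in wild-type P100 and 569 and 549 CPM in wild-type P30 (log2 difference between the wild-type ages -0.35, adjusted p = 0.00465). Syp, or synaptophysin, was at 1049 and 1039 CPM in heterozygous P30, 849 and 747 CPM in wild-type P100 and 1036 and 1075 CPM in wild-type P30 (log2 difference -0.40, adjusted p = 0.00424). Both P100 libraries were lowest for both genes, and 33.8% of the Syp exon bases are shared with another gene. Both genes, with Syngr1 and Slc17a8, were also called higher in heterozygous P30 than in wild-type P100. These 4 were 17.4% of the genes tested in the list, where 2.44% of all genes tested were called higher.

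Of 30 genes of the active zone, priming and disassembly, 3 were called lower in wild-type P100 than in wild-type P30: Bzrap1 (RIM-BP1, which links RIMs to calcium channels), Cadps2 (a priming factor) and Rph3a (rabphilin, a Rab3 effector). No gene of the list was called higher, and of all genes tested 3.0% were higher and 4.54% lower. Rph3a was at 178 and 202 CPM in heterozygous P30, 189 and 215 CPM in wild-type P100 and 236 and 286 CPM in wild-type P30, and it was lower than wild-type P30 in both comparisons (log2 differences -0.46 for genotype and -0.37 for age). Bsn, the active zone scaffold bassoon, was at 528 and 617 CPM in heterozygous P30, 644 and 596 CPM in wild-type P100 and 703 and 751 CPM in wild-type P30. It was lower in heterozygous P30 than in wild-type P30 (log2 difference -0.34, adjusted p = 0.0297). Doc2a, a calcium-binding protein of vesicle release, was higher in heterozygous P30 than in wild-type P30 (log2 difference 0.65, adjusted p = 0.0138), with 43.5% of its exon bases shared with another gene. Between these P30 groups, 3 of the 30 genes were called, 1 higher and 2 lower, where 3.23% of all genes tested were called. Between heterozygous P30 and wild-type P100, 3 were called, 2 higher and 1 lower, where 5.1% of all genes tested were.

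Of 26 endocytosis genes, 1 (3.85%) was lower in wild-type P100 than in wild-type P30, where 4.54% of all genes tested were. In heterozygous P30, 1 (3.85%) was lower than in wild-type P30, where 2.32% were, and 2 (7.69%) than in wild-type P100, where 2.66% were. Synj2, a phosphoinositide phosphatase related to the synaptojanin that uncoats vesicles, was at 106 and 118 CPM in heterozygous P30, 187 and 171 CPM in wild-type P100 and 171 and 180 CPM in wild-type P30. The 2 heterozygous libraries were well below the 4 wild-type libraries. Synj2 was lower in heterozygous P30 than in wild-type P30 (log2 difference -0.65, adjusted p = 0.000471) and than in wild-type P100 (log2 difference -0.68, adjusted p = 0.000267).

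Of 47 other synaptic adhesion and organizer genes, 7 (14.9%) were called between the wild-type ages, 2 higher and 5 lower, where 7.54% of all genes tested were. Between heterozygous P30 and wild-type P30, 5 (10.6%) were called, 2 higher and 3 lower, where 3.23% of all genes tested were, and between heterozygous P30 and wild-type P100, 5 (10.6%), 4 higher and 1 lower, where 5.1% were. Flrt3, a partner of latrophilins, was at 84.2 and 84.9 CPM in heterozygous P30, 98.4 and 104 CPM in wild-type P100 and 56.3 and 50.3 CPM in wild-type P30. The wild-type P30 libraries were lowest, with log2 differences of 0.93 for wild-type P100 (adjusted p = 2.976e-05) and 0.67 for heterozygous P30 (adjusted p = 0.000672). Cbln4, a secreted organizer that binds neurexins, was at 12.2 and 19.2 CPM in heterozygous P30, 34.3 and 39.8 CPM in wild-type P100 and 37.0 and 40.5 CPM in wild-type P30. It was lower in heterozygous P30 than in wild-type P30 (log2 difference -1.30, adjusted p = 0.000608) and than in wild-type P100 (log2 difference -1.23, adjusted p = 0.000796). Its relative Cbln2 was also lower in heterozygous P30 than in wild-type P30, at 43.2 and 44.9 CPM in heterozygous P30, 50.01 and 70.83 CPM in wild-type P100 and 66.9 and 85.2 CPM in wild-type P30 (log2 difference -0.79, adjusted p = 0.00832). Between the P30 groups, the estimated falls of Cbln4, Cbln2 and Synj2 were thus larger than that of Rims3, the largest fall among the 66 members.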

How the data were processed

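The authors deposited raw read counts for 95533 transcripts in each of 6 libraries. The mm10 build, HTSeq, Bowtie and DESeq 1.8.3 are listed, per the submitters' processing notes; settings, the annotation release and strand use are not given in the sources used here. Tables of comparisons deposited by the authors hold, per the file headers, signal values (mean scaled counts per group), their fold ratio, its log2 value and p-values; they were used only where named.

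Reads were counted in every isoform they overlapped: the 66 members had 301 transcripts, with counts in the second of a gene at 0.934 of those in the first (median). The transcript with the highest total stood for its gene. The 9669 transcripts without a gene, with 14.0% of the counts, were left out. Overlapping genes cannot be separated without strand. The quasi-likelihood test of edgeR 4.0.16, under R 4.3.3, was run after TMM scaling on genes that filterByExpr passed at a minimum count of 10 and a total of 15, with 1 factor of 3 groups over 6 libraries and 3 residual degrees of freedom, with Benjamini-Hochberg adjustment over 15841 genes and a threshold of 0.05. Levels are TMM-scaled CPM; lengths, GC content and positions are from GENCODE M21 (GRCm38, which is mm10), and Vamp7 has none there.

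The members and lists were chosen with earlier results of these data known. Values per library are given for members called in any comparison, for the most abundant member of most families and for the largest uncalled difference in each comparison; from each pathway list, up to 3 called genes with the smallest p per comparison could be named. Sv2c, Unc13b, Unc13c, Syngr1 and Slc17a8 were named after their values were seen. Some members that this rule names are not reported here, in the text or the plots. The upper bounds given for Otx2 cover counting error only. Each SE of a log2 difference is from the edgeR fit and includes the estimated spread between libraries. DESeq2 1.42.0 was an alternative.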

Additional observations from a re-analysis of the deposited data

How the results depend on the processing

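No call of a member or list reversed direction in any of 14 alternatives. RLE scaling and a filter of CPM 1 changed no count of calls by over 1.5 times. Counts below are given as wild-type P100 against wild-type P30, then heterozygous P30 against wild-type P30, then heterozygous P30 against wild-type P100. Without a filter on low counts, members called higher were 7, 3 and 5, members called lower 11 and 8 in the first 2 comparisons, members called over the 3 groups 24, all genes 1860, 1120 and 1473, and pathway genes 16 and 24 in the last 2; the cause was not tested. With counts summed over transcripts, 2 members were higher and 2 lower with age, 3 were lower in the last comparison, 6 were called over the 3 groups, all genes called were 791, 263 and 502, and pathway genes 7 and 4 in the first 2 comparisons; the last median was 0.0372. With only the 4 libraries compared, 4 members were lower with age and 2 higher in the last comparison. DESeq2 called 4 members lower between the P30 groups, adding Nlgn2 and Nrxn2. With the GC trend removed, 1 member was lower with age, 6 were called over the 3 groups, and the age and last medians were -0.0322 and 0.0417. Leaving out 1 library gave 1 to 4 members higher and 0 to 6 lower with age, 1 to 2 lower between the P30 groups, 0 to 1 higher and 2 to 7 lower in the last comparison, and 4 to 10 over the 3 groups. It gave 351 to 1078, 184 to 473 and 255 to 942 genes called in all, 6 to 11, 4 to 8 and 2 to 16 pathway genes, and member medians of -0.0162 to 0.0092, -0.0034 to 0.0436 and 0.0115 to 0.0698. Deviations of same-numbered libraries correlated at -3e-04 between wild-type P100 and heterozygous P30 and at -0.0041 between the wild-type groups. Between the P30 groups the correlation was 0.1002. These values do not settle whether replicate numbers pair the samples. A replicate block called 4 members lower between the P30 groups, adding Nlgn2 and Nrxn2, and added Snap25 in the other 2 comparisons.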
